A study of Mus musculus with 24 samples.

Results

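Primary myoblasts (PMs) in which Tead1 and Tead4 had been silenced together were compared with control PMs at day 3 of differentiation, by RNA-seq of whole cultures. The comparison was taken by cell type, siRNA and day from the sample labels, and it holds 4 of the 24 libraries of the series, 2 labelled siTead1/4 and 2 control libraries (siControl). Of the 28109 genes in the table, 16144 had enough counts in PMs to be tested, and all of them belong to the comparison. The other libraries are PMs at days 0 and 6 and C2C12 cells, a mouse myoblast line, at days 0, 3 and 6, with the same pair of siRNA treatments and 2 libraries in each group.

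The PMs came from young wild type mice of the strain labelled C57/B6 and carried no engineered allele. They were transfected with pools of siRNAs against Tead1 and Tead4 or with the control, which the sample titles call siLuc and the study's methods call a non-targeting siRNA. The cells were then moved to a medium low in horse serum, in which myoblasts leave the cell cycle and fuse, and the day 0 libraries were made from transfected cells that had not yet differentiated. Silencing by transfection is partial and transient, and since both genes were targeted together their separate parts cannot be told apart. The labels call the replicates biological duplicates. Whether each came from a separate mouse is not given in the sources used here, so p-values measure the spread between these libraries, which may be in part technical. In RNA from whole cultures, fewer cells of a type and less RNA per cell cannot be told apart.

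Tead proteins are transcription factors that bind the MCAT element, a short DNA motif found in the control regions of many muscle genes, and that need cofactors such as Yap1, Wwtr1 (Taz) and the Vgll proteins to act on transcription. The Hippo kinases restrain Yap1 and Wwtr1. In muscle, Tead factors sit beside the myogenic regulators Myod1, Myog and Mef2 on the genes of the sarcomere, and differentiating cells go through a series of myosin heavy chain isoforms, from embryonic and perinatal to adult fast and slow forms.

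The 4 libraries held 40626991 to 51110723 counts. Replicates correlated at r = 0.988 in siControl and 0.990 in siTead1/4, across genes on the log2 CPM scale, and mitochondrial genes took 4.72% to 5.32% of the counts. Levels are given as CPM, counts scaled by TMM to a common library size, in the order siControl replicates 1 and 2, then siTead1/4 replicates 1 and 2. A gene was called up or down where edgeR's quasi-likelihood test gave a Benjamini-Hochberg adjusted p under 0.05 and the log2 fold change was over 1 or under -1.

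Silencing was followed by 339 genes called up, 2.1% of those tested, and 193 called down, 1.2% of those tested. Among the called genes, the rises had the larger fold changes but the lower levels. Their median log2 fold change was 1.73, with 130 genes past 4-fold and 53 past 8-fold, whereas the falls had a median of -1.38, with 46 past 4-fold and 10 past 8-fold. Over all tested genes the median was 0.0079. The mean level of the 4 libraries had a median of 4.30 CPM in the rises and 7.68 CPM in the falls. The lower group was under 1 CPM in 137 of the rises and 54 of the falls. In 32 rises and 3 falls a group had at most 3 counts in each library, and such fold changes rest on few reads. Protein-coding genes made up 315 of the rises and 180 of the falls, and lincRNAs 16 and 8. In each of the called genes the 2 libraries of one group lay beyond the 2 of the other, as they did in 52.3% of all tested genes. The counts rested on single libraries in part, since the refits that left out 1 of the 4 libraries called 140 to 283 genes up, the fewest without siControl replicate 1, and 90 to 169 down, the fewest without siTead1/4 replicate 1.

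**Figure D1:**
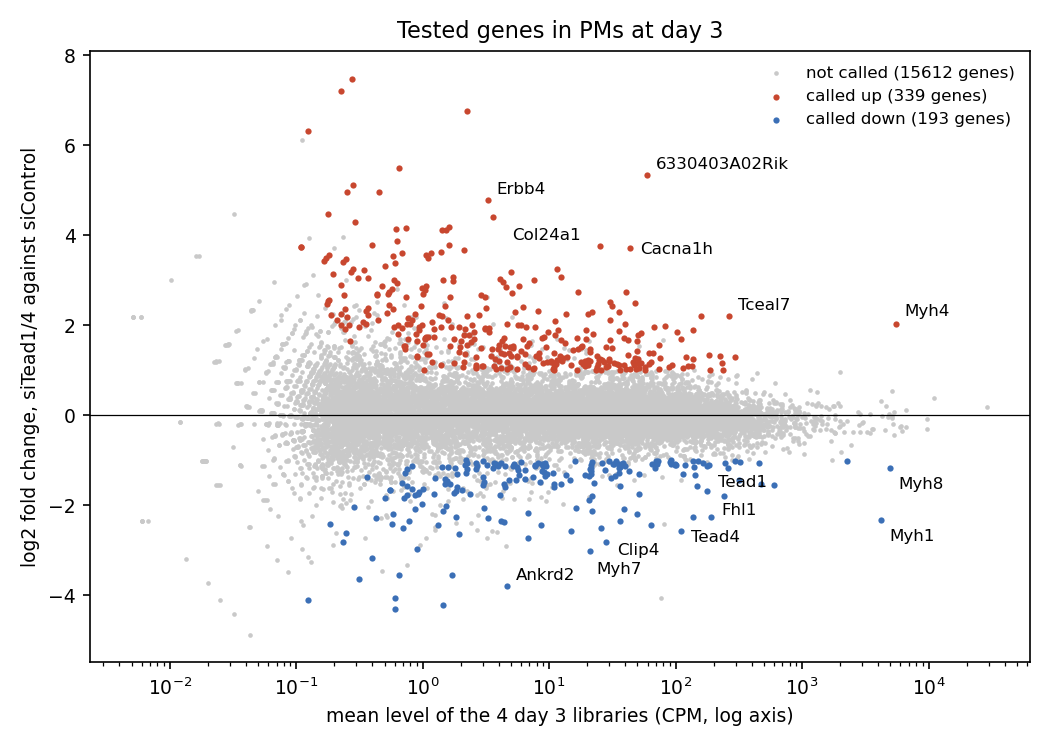
Log2 fold change (siTead1/4 against siControl, vertical axis) against the mean level of the 4 day 3 PM libraries in CPM (horizontal log axis), 1 point for each of the 16144 tested genes. Red points are the 339 genes called up and blue points the 193 called down, with Myh4 the most abundant of the labelled rises and Myh8 and Myh1 the most abundant of the labelled falls.

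The targeted genes were both reduced. Tead4, which the table places at chr6:128174306-128250841 in mm9, stood at 186.5 and 189.3 CPM in siControl and at 29.4 and 33.5 CPM in siTead1/4. It fell by 2.58 on the log2 scale (SE 0.17, adjusted p = 9.25e-05), which left the groups far apart. Tead1, at chr7:119822832-120050319, stood at 278.5 and 266.7 CPM against 95.6 and 74.3 CPM. It fell by 1.68 (SE 0.31, adjusted p = 0.0107), again without overlap. The Tead4 call held whichever of the 4 libraries was left out, but that of Tead1 was lost without siControl replicate 1 (adjusted p = 0.0612) and without siTead1/4 replicate 2 (adjusted p = 0.0889), with log2 fold changes from -1.88 to -1.52 in those 4 refits.

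The family members that the siRNAs did not target differed from each other. Tead3 stood at 30.6 and 35.6 CPM in siControl and at 58.1 and 89.4 CPM in siTead1/4, where both libraries were higher. It rose by 1.16 (SE 0.20, adjusted p = 0.00703), a call that was lost without siControl replicate 1 or siTead1/4 replicate 2 (adjusted p up to 0.0733). Tead2, at 58.9 and 69.2 against 51.9 and 68.9 CPM, overlapped between the groups (log2 fold change -0.08, adjusted p = 0.785). Per kilobase of gene model, the mean levels in siControl ran from Tead4 (52.3 CPM per kb) through Tead1 (25.1) and Tead2 (17.3) to Tead3 (10.8). In siTead1/4 the mean was 24.0 CPM per kb for Tead3, 16.3 for Tead2, 8.75 for Tead4 and 7.82 for Tead1.

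**Figure D2:**
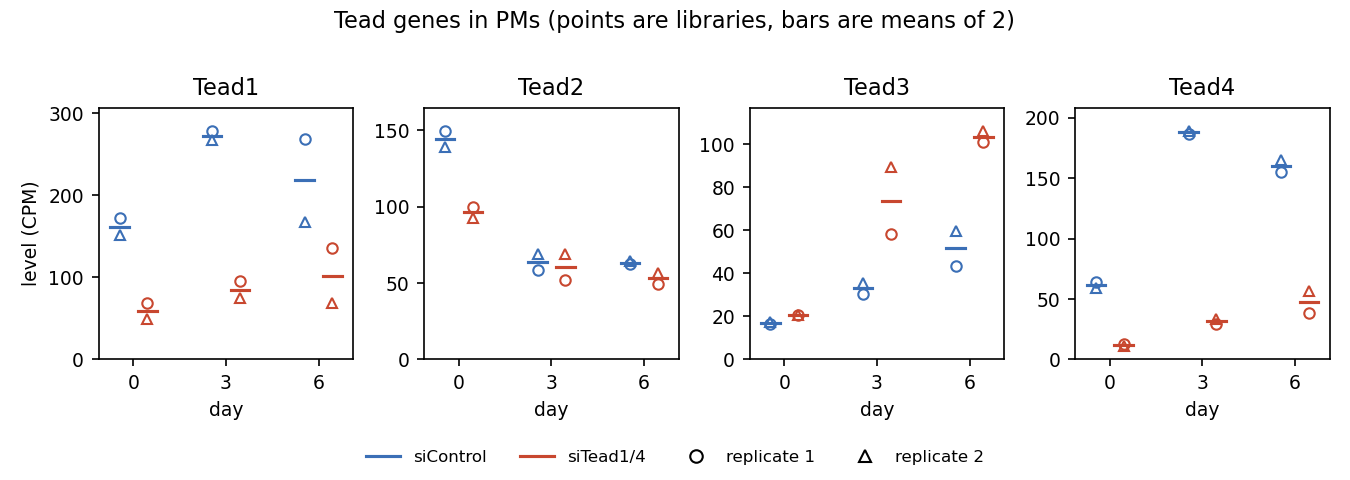
Levels in CPM of the 4 Tead genes in every PM library by day (0, 3 and 6), circles for replicate 1, triangles for replicate 2 and bars for the mean of 2. At day 3 the siTead1/4 libraries lie below siControl for Tead1 and Tead4, above it for Tead3 and among its values for Tead2.

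Of the cofactors of the Tead proteins, Vgll2 was called and Yap1, Wwtr1, Vgll3 and Vgll4 were not. Yap1 (132.5 and 158.4 against 145.3 and 143.5 CPM) had a log2 fold change of -0.01 (adjusted p = 0.97), and its paralog Wwtr1 (170.3 and 235.1 against 249.4 and 250.4 CPM) one of 0.30 (adjusted p = 0.293). Vgll2, a muscle cofactor, stood at 24.99 and 34.77 CPM in siControl and at 65.7 and 63.4 CPM in siTead1/4. It rose by 1.11 (SE 0.19, adjusted p = 0.00698), and lost its call without siControl replicate 1 (adjusted p = 0.0677). Vgll3 and Vgll4 had log2 fold changes of -0.18 and 0.22.

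The 12 largest falls named sarcomere, signalling and membrane genes. They were taken from called genes with at least 5 CPM in their higher group and no overlap between groups. Separation of the groups was thus set by this rule, here and in the 12 largest rises below, and is no further support. Ankrd2, a stretch-responsive ankyrin repeat protein of the Z-disc (chr19:42110528-42119600), stood at 12.6 and 4.81 CPM in siControl and at 0.556 and 0.688 CPM in siTead1/4. It had the largest fall of these (log2 fold change -3.80, SE 0.49, adjusted p = 0.00184), and although its siControl libraries differed from each other, both lay above both siTead1/4 libraries. Next came Myh7, the slow myosin heavy chain (chr14:55589525-55613471), at 32.1 and 43.1 against 3.19 and 6.10 CPM (-3.03, SE 0.45, adjusted p = 0.00356), which did not overlap between groups.

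Clip4, of the family of microtubule-binding CLIP proteins, stood at 41.9 and 57.3 against 4.30 and 9.70 CPM (log2 fold change -2.83, SE 0.36, adjusted p = 0.00179). Eef1a2, the elongation factor isoform of mature muscle and neurons, stood at 8.536 and 14.95 against 1.48 and 2.04 CPM (-2.74, SE 0.36, adjusted p = 0.00186). Fbxo40, a muscle-restricted F-box protein, stood at 49.3 and 38.4 against 8.07 and 7.33 CPM (-2.51, SE 0.30, adjusted p = 0.00135). In each of these 3 genes the lower siControl library was several times the higher siTead1/4 library. Cd24a, a surface glycoprotein of immature cells, also fell, from 98.5 and 119.0 CPM to 20.7 and 19.5 CPM (-2.44, SE 0.29, adjusted p = 0.00145). Nos1, the neuronal nitric oxide synthase that is anchored at the muscle membrane by the dystrophin complex, stood at 11.7 and 17.4 against 2.14 and 3.27 CPM (-2.43, SE 0.43, adjusted p = 0.00857). Stac2, an adaptor of voltage-gated calcium channels, stood at 75.4 and 45.9 against 11.9 and 11.7 CPM (-2.36, SE 0.29, adjusted p = 0.0015).

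The remaining 3 of the 12, beside Tead4, were Hephl1 (a copper-dependent ferroxidase, -2.57), Lman1l (a lectin of the early secretory pathway, -2.37) and Sohlh2 (a bHLH factor known from germ cells, -2.35). Their calls were less secure. Hephl1 lost its call without siControl replicate 2, siTead1/4 replicate 1 or siTead1/4 replicate 2 (adjusted p up to 0.17), Lman1l without siControl replicate 1 or either siTead1/4 library (up to 0.107), Sohlh2 without siControl replicate 1 or siTead1/4 replicate 2 (up to 0.0648), and Nos1 without siTead1/4 replicate 1 (0.0757). The calls of the other 8 held in all 4 refits. Among abundant genes outside that rule, chosen after their values were seen, Aif1l, an actin-binding protein, fell from 429.9 and 316.9 CPM to 104.5 and 110.7 CPM (-1.80), Mtap1b, a microtubule-associated protein, from 794.8 and 612.0 to 268.8 and 217.9 CPM (-1.53), and the nuclear receptor Esrrg from 37.1 and 30.0 to 12.9 and 10.6 CPM (-1.51). Aif1l and Mtap1b kept their calls in all 4 refits, and Esrrg lost its call without siControl replicate 1 or either siTead1/4 library (adjusted p up to 0.114).

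The 12 largest falls were searched for the letters of the MCAT core, because MCAT elements are the known binding sites of Tead factors. Promoters of 300 bases, from 250 before the start on, were taken from RefSeq on GRCm38.p6, and GGAATG was searched on both strands. Of the 12 falls, 9 had a promoter in the RefSeq table and 3 held the letters, Myh7 in 1 of its 2 promoters. They are printed 5′ to 3′ along the gene, with the match in capitals (CATTCC where it lies on the other strand).

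Myh7, chr14:54994577-54994876, minus strand: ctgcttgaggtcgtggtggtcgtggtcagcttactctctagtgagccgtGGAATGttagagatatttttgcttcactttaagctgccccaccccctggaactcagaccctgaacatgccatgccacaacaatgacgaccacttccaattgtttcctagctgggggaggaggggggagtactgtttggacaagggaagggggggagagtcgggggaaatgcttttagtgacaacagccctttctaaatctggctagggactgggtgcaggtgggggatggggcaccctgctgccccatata
Hephl1, chr9:15112059-15112358, minus strand: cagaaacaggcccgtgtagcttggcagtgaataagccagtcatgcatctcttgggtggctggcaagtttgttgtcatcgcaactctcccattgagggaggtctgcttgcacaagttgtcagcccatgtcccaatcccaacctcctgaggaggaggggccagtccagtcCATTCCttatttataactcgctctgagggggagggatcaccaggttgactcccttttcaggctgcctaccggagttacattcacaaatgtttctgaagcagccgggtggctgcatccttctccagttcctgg
Lman1l, chr9:57620725-57621024, minus strand: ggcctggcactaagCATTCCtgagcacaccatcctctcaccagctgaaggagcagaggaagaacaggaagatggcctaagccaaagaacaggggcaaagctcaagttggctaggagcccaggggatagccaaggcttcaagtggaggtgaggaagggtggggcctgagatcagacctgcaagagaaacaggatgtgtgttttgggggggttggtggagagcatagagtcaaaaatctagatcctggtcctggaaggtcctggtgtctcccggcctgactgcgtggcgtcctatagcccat

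The match began 201 bases before the start in Myh7, 82 before it in Hephl1 and 236 before it in Lman1l. Of the 12 largest rises, 7 had a promoter in the RefSeq table and none of those held the letters. Over all promoters, GGAATG was present in 33 of the 198 of genes called down (16.7%), in 49 of the 340 of genes called up (14.4%) and in 1900 of the 15110 of all tested genes (12.6%). CAGCTG, an E-box of the kind that myogenic factors bind, was present in 20.7%, 20.9% and 16.2%. These shares describe a short window and say nothing of binding.

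The 12 largest rises, taken by the same rule and so without overlap, held signalling, secreted and neural genes. The transcript 6330403A02Rik, at chr1:182362518-182413598, stood at 1.78 and 3.91 CPM in siControl and at 118.8 and 114.0 CPM in siTead1/4, and it rose by 5.34 (SE 0.58, adjusted p = 0.000859). Erbb4, a receptor for neuregulins, stood at 0.243 and 0.218 against 6.79 and 5.95 CPM (4.77, SE 0.52, adjusted p = 0.00135). Rprm, a p53-responsive inhibitor of the G2 phase, stood at 0.378 and 0.267 against 6.71 and 6.95 CPM (4.40, SE 0.42, adjusted p = 0.000601). Erbb4 had 9 counts in each siControl library and Rprm 14 and 11, and in all 3 genes the groups were far apart.

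Col24a1, a minor fibrillar collagen, rose from 2.65 and 4.32 CPM to 44.3 and 49.9 CPM (log2 fold change 3.75, SE 0.24, adjusted p = 9.25e-05). Cacna1h, the pore of a T-type calcium channel, rose from 5.92 and 6.29 CPM to 90.4 and 70.7 CPM (3.72, SE 0.40, adjusted p = 0.000829). Rgs14, a regulator of G protein signalling, rose from 1.43 and 2.96 CPM to 23.2 and 18.5 CPM (3.24, SE 0.42, adjusted p = 0.00186). Each of the 3 lay far above its control range in both silenced libraries, though separation itself was set by the rule. Clstn2, a synaptic calsyntenin, rose from 1.78 and 3.54 to 19.6 and 25.2 CPM (3.06), Wif1, a secreted Wnt inhibitor, from 1.59 and 1.80 to 12.27 and 15.02 CPM (3.01), and Smoc1, a secreted modular protein that binds Bmp ligands, from 0.945 and 0.995 to 6.999 and 8.255 CPM (2.97). The transcript 1810011O10Rik rose from 1.30 and 1.48 to 10.5 and 10.1 CPM (2.88). These calls held without any single library. Tspan8, a tetraspanin (0.378 and 1.58 against 4.59 and 13.4 CPM, 3.17), and Rxfp1, the relaxin receptor (0.729 and 1.04 against 9.18 and 5.43 CPM, 3.04), were called but lost the call without siControl replicate 1 (adjusted p = 0.0556 and 0.0695).

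Some rises were found among more abundant genes, chosen here after their values were seen. Tceal7, an elongation factor-like protein, stood at 89.7 and 100.3 against 468.5 and 406.2 CPM (log2 fold change 2.20, SE 0.14, adjusted p = 9.25e-05), and its gene model overlaps Bex1. Nrk, a kinase of the germinal centre group, stood at 37.1 and 75.3 against 307.1 and 212.3 CPM (2.21, SE 0.43, adjusted p = 0.0138), a call that was lost without replicate 1 of either group (adjusted p up to 0.109). Shisa2 stood at 169.4 and 171.3 against 479.7 and 358.0 CPM (1.30), and Foxo1, a transcription factor of muscle atrophy, at 29.1 and 49.5 against 79.5 and 97.8 CPM (1.17). Shisa2 held in all 4 refits, and Foxo1 lost its call without siControl replicate 1 or siTead1/4 replicate 2 (adjusted p up to 0.0979).

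The myosin heavy chain genes changed in opposite directions. Myh4, the fast type 2B isoform (chr11:67051314-67073948), stood at 2484 and 1902 CPM in siControl and at 9937 and 7837 CPM in siTead1/4. It rose by 2.02 (SE 0.28, adjusted p = 0.00259), with both silenced libraries far above the controls. Myh1, the fast type 2X isoform (chr11:67013554-67038078), stood at 7185 and 6838 against 1390 and 1396 CPM and fell by 2.33 (SE 0.21, adjusted p = 0.00053), with as clear a gap in the other direction. Myh8, the perinatal isoform, stood at 6633 and 7019 against 3135 and 2899 CPM (-1.18, SE 0.20, adjusted p = 0.0076), and Myh2, the type 2A isoform, at 24.4 and 41.2 against 8.03 and 9.63 CPM (-1.89, SE 0.32, adjusted p = 0.00681). Neither overlapped, and the call of Myh8 was lost without siTead1/4 replicate 2 (adjusted p = 0.0629) and that of Myh2 without siTead1/4 replicate 1 (0.0587). Myh3, the embryonic isoform, stood at 10620 and 10720 against 10170 and 7051 CPM and was not called (-0.31, adjusted p = 0.452). These genes lie side by side on one chromosome, except Myh7, and are close in sequence, so the division of shared reads among them is uncertain.

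Expressed per kilobase and as a share of these 6 genes, Myh4 held 9.98% and 7.80% in siControl and 42.0% and 42.8% in siTead1/4. Myh1 held 27.5% and 26.6% against 5.58% and 7.24%, and Myh8 20.5% and 22.1% against 10.2% and 12.1%. Myh3 held 41.9% and 43.2% against 42.2% and 37.8%. The summed level of the 6 genes was 4120 and 4040 CPM per kb in siControl and 3919 and 3035 CPM per kb in siTead1/4. At day 6 Myh4 held 17.1% and 9.41% in siControl and 49.9% and 32.0% in siTead1/4, and Myh1 22.3% and 21.9% against 12.5% and 20.6%.

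**Figure D3:**
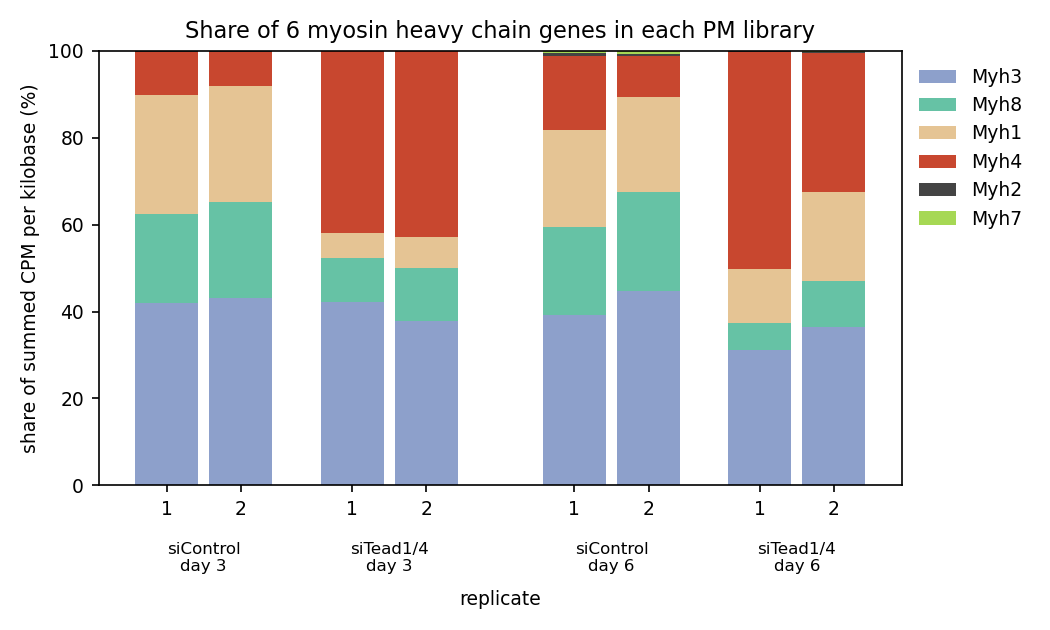
Share of the summed CPM per kilobase held by each of 6 myosin heavy chain genes (vertical axis, percent) in each PM library at days 3 and 6, 1 stacked bar per library. Myh4 takes 9.98% and 7.80% of the day 3 siControl bars and 42.0% and 42.8% of the day 3 siTead1/4 bars.

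The wider list of myosin and thin filament genes held 35 tested members, of which 1 was called up (Myh4) and 6 down, with 26 of 35 at a log2 fold change below 0 and a list median of -0.31. The called shares were 2.86% and 17.1%, beside 2.1% and 1.2% of all tested genes. Beside the myosin heavy chains, the falls were Myl2, the slow regulatory light chain (2.32 and 2.43 against 0.474 and 0.617 CPM, -2.12, adjusted p = 0.00805), and Tnni1, the slow troponin I (3096 and 2996 against 1397 and 1620 CPM, -1.01, adjusted p = 0.0127). Myl2 lost its call without siTead1/4 replicate 1 (adjusted p = 0.0691), and Tnni1 without siControl replicate 1 or either siTead1/4 library (up to 0.0934). Acta1, skeletal actin and the most used thin filament gene, stood at 10430 and 9631 against 9126 and 9770 CPM and was not called (-0.09, adjusted p = 0.776). Myl6b, a slow essential light chain chosen after its values were seen, fell from 473.5 and 458.6 to 147.5 and 196.5 CPM (-1.44), and lost the call without siTead1/4 replicate 1 (adjusted p = 0.0515).

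In the list of Z-disc, titin and M-band genes, 5 of 42 tested members fell (11.9%, beside 1.2% of all tested genes), none rose and the median was -0.25. Fhl1, a LIM-domain protein of the sarcomere, fell from 320.3 and 305.3 CPM to 65.96 and 64.62 CPM (-2.26, SE 0.22, adjusted p = 0.000601). Ankrd23, another ankyrin repeat protein of the titin filament, fell from 1057 and 728 CPM to 284.6 and 327.6 CPM (-1.54, SE 0.18, adjusted p = 0.00122). Neither overlapped and both held in all 4 refits, as did Ankrd2. Xirp2, an actin-binding protein of the intercalated disc and Z-disc, stood at 228.7 and 228.6 against 56.3 and 38.3 CPM (-2.27, adjusted p = 0.023) but lost its call whichever library was left out (adjusted p up to 0.15). Hspb7, a small heat shock protein, fell by 1.02 and was under the fold threshold without siTead1/4 replicate 1 (-0.998).

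In 3 further muscle lists 1 member each was called, 3.03%, 4.76% and 4.17% of them, beside 2.1% up and 1.2% down over all tested genes. Of 33 genes of excitation-contraction coupling, 1 was called, Sln (sarcolipin, an inhibitor of the calcium pump), which rose from 80.6 and 127.8 to 216.5 and 309.9 CPM (1.34, adjusted p = 0.0145). The list median was -0.11, and it was -0.22 without siControl replicate 2 and -0.25 without siTead1/4 replicate 1. Of 21 neuromuscular junction genes, 1 was called, Ache (acetylcholinesterase), from 63.5 and 53.7 to 259.6 and 173.4 CPM (1.89, SE 0.28, adjusted p = 0.0038), and the list median was 0.14, or -0.0944 without siTead1/4 replicate 1. Of 24 genes of the dystrophin complex, Nos1 was the single call. Sln was not called without siControl replicate 1 or siTead1/4 replicate 2 (adjusted p up to 0.114), and Ache held in all 4 refits.

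None of 41 myogenic transcription factors passed both thresholds, and their median was 0.05. A fit blocked on replicate number called 1 up, that without siControl replicate 2 called 2 up, and with 1 library left out the median was 0.0803 to 0.12. Myog stood at 948.9 and 1121 against 646.7 and 802.1 CPM (-0.51, adjusted p = 0.0922), Myod1 at 392.9 and 445.4 against 353.5 and 420.1 CPM (-0.12, adjusted p = 0.829) and Mef2c at 1301 and 1423 against 1255 and 1140 CPM (-0.19, adjusted p = 0.434). Myog and Mef2c lay lower in both silenced libraries than in both controls, and Myod1 overlapped. Of the 41 factors, 8 were separated in this way toward lower levels and 13 toward higher ones. Over all tested genes 52.3% were separated in either direction. Of 34 fusion genes, Jam2, an adhesion molecule, fell from 138.8 and 136.1 to 54.6 and 73.7 CPM (-1.10, adjusted p = 0.0134), a call lost without replicate 1 of either group (adjusted p up to 0.0999). Jam2 was the 1 call among the 34 fusion genes, 2.94% of them, beside 1.2% of all tested genes called down. Cav3, the muscle caveolin, stood at 285.8 and 363.7 against 142.9 and 239.8 CPM (-0.76, adjusted p = 0.168) and was not called.

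In the list of muscle energy metabolism, 2 of 39 members fell (5.13%, beside 1.2% of all tested genes), Ckmt2 (mitochondrial creatine kinase, -1.11) and Fabp3 (a fatty acid carrier, -1.03). The list median was -0.25, or -0.12 without siControl replicate 1. Neither call was firm, since Ckmt2 lost it whichever library was left out and Fabp3 without siControl replicate 1 or either siTead1/4 library, with adjusted p up to 0.139 and 0.226. None of the 64 genes of oxidative phosphorylation was called, but 61 had a log2 fold change below 0 and their median was -0.27 (-0.35 to -0.19 with 1 library left out). At an adjusted p under 0.05 and any fold, 10 of these 64 were lower and 1 higher, against 3.43% lower and 3.91% higher among all tested genes. Ndufs1 of complex I stood at 460.5 and 417.1 against 320.8 and 271.2 CPM (-0.57, adjusted p = 0.0156), and Sdhb of complex II at 252.8 and 235.5 against 176.0 and 165.6 CPM (-0.52, adjusted p = 0.0121). Cox8a was the 1 gene in the other direction (139.9 and 137.6 against 187.8 and 192.0 CPM, 0.45).

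Of 65 genes of DNA replication and the G1/S transition, 53 were higher and the list median was 0.17, and of 69 mitosis genes 65 were higher with a median of 0.18. At an adjusted p under 0.05 and any fold, 3 of the 65 and 1 of the 69 were higher and none lower, beside 3.91% higher among all tested genes. The medians were smallest without siTead1/4 replicate 1 (0.0707 and 0.10) and next without siControl replicate 1 (0.11 in both lists), and without siControl replicate 2 that of mitosis was 0.29. At day 0 the medians of these lists were -0.42 and -0.47, in other libraries. The 1 call in each list was Ccnd1 (cyclin D1, 94.5 and 78.5 against 200 and 169.6 CPM, 1.095, adjusted p = 0.0361) and Cdc25b (a phosphatase that starts mitosis, 17.7 and 27.4 against 46.4 and 51.9 CPM, 1.12, adjusted p = 0.0298). These were 1.54% and 1.45% of the lists, beside 2.1% of all tested genes called up. Both genes were higher in each silenced library than in each control, a separation shared by every called gene. Ccnd1 lost its call whichever library was left out (adjusted p up to 0.156), and Cdc25b in all refits but that without siControl replicate 2 (up to 0.203). None of 21 cell cycle inhibitors was called, and Cdkn1a, the inhibitor induced when myoblasts exit the cycle, stood at 2238 and 1974 against 1893 and 1939 CPM (-0.14, adjusted p = 0.626).

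**Figure D4:**
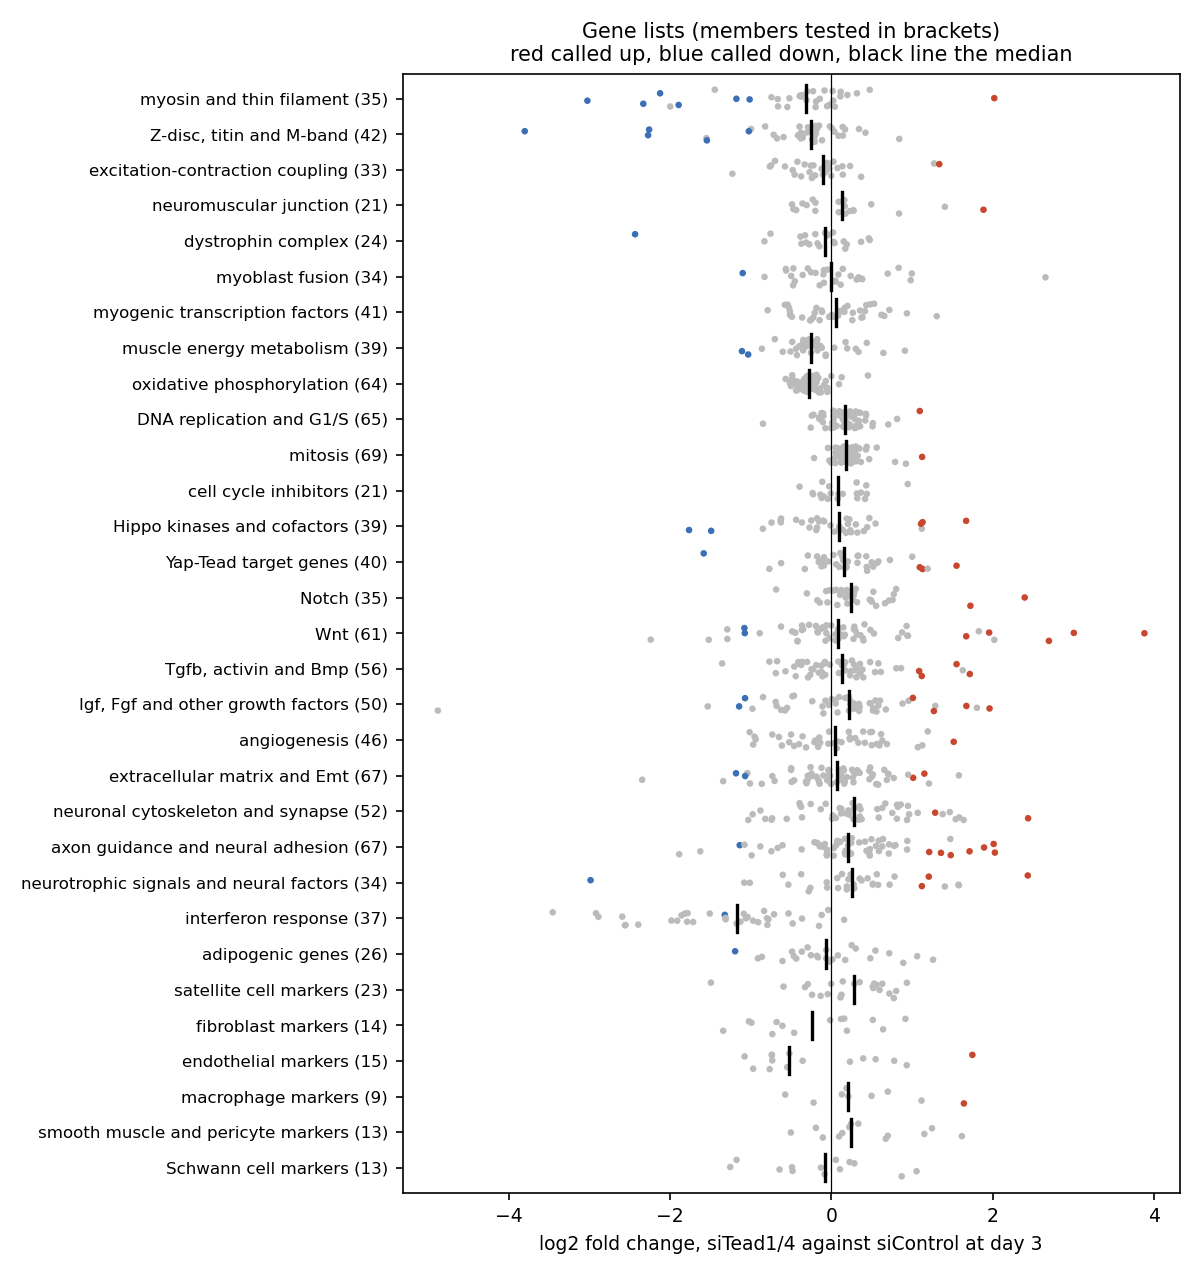
Log2 fold changes at day 3 (horizontal axis, siTead1/4 against siControl) of the tested members of each gene list, 1 point per gene. Red points are called up, blue points are called down and the black line is the list median, which lies between -0.52 and 0.28 except in the interferon response list (-1.18).

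Among 39 genes of the Hippo pathway and its cofactors, 3 were called up and 2 down, with a median of 0.10. The called shares were 7.69% and 5.13%, beside 2.1% and 1.2% of all tested genes. The falls were Dchs1, a protocadherin upstream of the kinases (5.51 and 7.21 against 1.69 and 2.06 CPM, -1.77, adjusted p = 0.00179), and Wwc1, a scaffold that activates Lats kinases (10.5 and 14.3 against 4.71 and 4.10 CPM, -1.49, adjusted p = 0.00137). The rises beside Vgll2 were Rassf2, which binds the kinases Mst1 and Mst2 (4.16 and 7.64 against 17.4 and 20.3 CPM, 1.67, adjusted p = 0.00472), and Jub, an inhibitor of Lats (35.0 and 42.8 against 77.5 and 92.9 CPM, 1.13, adjusted p = 0.00387). All 4 were separated between groups, as were all called genes and 52.3% of all tested genes. Jub was under the fold threshold without siControl replicate 1 or siTead1/4 replicate 2 (lowest log2 fold change 0.99), and the other 3 held.

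Of 40 Yap-Tead target genes known from other cells, 3 were called up (Tgfb2, Jub and Ccnd1) and 1 down, and the median was 0.16 (0.16 to 0.24 with 1 library left out). The called shares were 7.5% and 2.5%, beside 2.1% and 1.2% of all tested genes. The calls of Tgfb2, Jub and Ccnd1 each depended on single libraries, as given with their other lists. The fall was Msln, a surface glycoprotein of mesothelium, from 61.1 and 47.8 to 17.9 and 18.5 CPM (-1.58, SE 0.18, adjusted p = 0.00114). Ctgf, the best known target, stood at 194.0 and 103.5 against 148.3 and 88.4 CPM, with more spread between replicates than between groups (-0.33, adjusted p = 0.615). Ankrd1 (327.8 and 317.7 against 267.5 and 259.8 CPM, -0.29, adjusted p = 0.508) and the feedback genes Lats2 (0.19) and Amotl2 (0.44) were not called.

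In the Wnt list 5 of 61 genes were called up (8.2%) and 2 down (3.28%), beside 2.1% and 1.2% of all tested genes. Where at least 10 counts were asked of every library, 1 was called up and 2 down. Beside Wif1, they were Rspo3, an amplifier of Wnt signals, with 1 and 5 counts against 40 and 64 (3.88, adjusted p = 0.0049), Sfrp2, a secreted Frizzled-related inhibitor, with 10 and 11 counts against 82 and 77 (2.70, adjusted p = 0.00312), the ligand Wnt3 with 11 and 19 counts against 46 and 86 (1.96, adjusted p = 0.024), and the receptor Fzd1 (14.05 and 14.97 against 51.1 and 41.3 CPM, 1.67, adjusted p = 0.00191). Rspo3, Sfrp2 and Wnt3 rested on few reads in siControl. Ror1, a receptor of non-canonical Wnts (-1.08), and Porcn, which acylates Wnt ligands (-1.07), fell. Rspo3 was not called without siControl replicate 1 (adjusted p = 0.0512), Wnt3 without either siControl library or siTead1/4 replicate 2 (up to 0.171), Ror1 without siControl replicate 1 or either siTead1/4 library (up to 0.19) and Porcn without any 1 of the 4 (up to 0.19). Nkd1, a feedback inhibitor induced by Wnt signals, stood at 1.14 and 1.70 against 4.78 and 6.76 CPM and missed the threshold (2.02, adjusted p = 0.0619).

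In the list of Tgfb, activin and Bmp genes 4 of 56 rose (7.14%, beside 2.1% of all tested genes) and none fell. The list median was 0.13, or 0.082 without siControl replicate 2 and -0.0115 without siTead1/4 replicate 2. Tgfb2 stood at 27.6 and 47.0 against 105.3 and 113.5 CPM (1.55, SE 0.26, adjusted p = 0.00684), and Bmp2 at 4.24 and 4.03 against 12.3 and 14.9 CPM (1.72, SE 0.26, adjusted p = 0.0044). Inhbb, the beta B subunit of activin and inhibin (7.51 and 11.2 against 17.3 and 23.4 CPM, 1.12, adjusted p = 0.0327), and Mstn, the muscle growth inhibitor myostatin (21.7 and 15.7 against 51.4 and 28.0 CPM, 1.09, adjusted p = 0.0441), were higher in both silenced libraries. The call of Bmp2 held in all 4 refits. That of Tgfb2 was lost without siControl replicate 1 (adjusted p = 0.0515), that of Inhbb in all but the refit without siControl replicate 2 (up to 0.219) and that of Mstn in all but the refit without siTead1/4 replicate 2 (up to 0.265).

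Of 50 genes of the Igf, Fgf and other growth factor families, 4 were called up (8%) and 2 down (4%), beside 2.1% and 1.2% of all tested genes. Pdgfb stood at 24.3 and 32.1 against 68.2 and 68.0 CPM (1.27, SE 0.13, adjusted p = 0.000687), and Fgf7 at 2.62 and 3.69 against 11.0 and 13.6 CPM (1.96, SE 0.33, adjusted p = 0.007). Igfbp4, which binds and holds back Igf ligands, stood at 12.2 and 27.8 against 58.8 and 69.0 CPM (1.67, SE 0.33, adjusted p = 0.0135). All 3 were clear of their controls, as were all called genes and 52.3% of all tested genes. Fgfrl1, an Fgf receptor without a kinase, fell from 171.8 and 216.1 to 84.0 and 91.6 CPM (-1.14), and Egf from 11.4 and 13.8 to 6.63 and 5.31 CPM (-1.07). The other rise was Fgfr2 (1.01), whose gene model in the table overlaps many neighbours, so its counts are uncertain. Pdgfb held in all 4 refits, Fgf7 was lost without siControl replicate 1 (adjusted p = 0.0735), Igfbp4 without siControl replicate 1 or siTead1/4 replicate 2 (up to 0.0715), Fgfrl1 was under the fold threshold without siControl replicate 2 (-0.97), and Egf and Fgfr2 were lost whichever library was left out (up to 0.136 and 0.192).

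Of 35 Notch genes, 2 were called up (5.71%, beside 2.1% of all tested genes) and none down, with a median of 0.24. They were Dlk2 (1.73 and 2.21 against 8.89 and 11.9 CPM, 2.40, adjusted p = 0.00745) and Dner (8.27 and 7.21 against 28.6 and 22.5 CPM, 1.72, adjusted p = 0.0119), which encode non-classical ligands. Notch1 (0.12) and the ligand Dll1 (0.15) were not called. Notch3 stood at 77.9 and 159.6 against 160.0 and 254.3 CPM (0.80, adjusted p = 0.249), and its replicates differed about as much as the groups. Dlk2 was lost without siControl replicate 1 (adjusted p = 0.0757) and Dner without either siControl library or siTead1/4 replicate 1 (up to 0.0738).

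Of the angiogenesis genes 2.17% were called up, and of the matrix genes 2.99% each way, beside 2.1% up and 1.2% down over all tested genes. Of 46 angiogenesis genes, Ednra, an endothelin receptor, was the 1 called (9.24 and 9.44 against 24.0 and 29.5 CPM, 1.52, SE 0.18, adjusted p = 0.00137), and it held in all 4 refits. Of 67 matrix genes, 2 rose and 2 fell. Col5a3, a fibrillar collagen chain, rose from 123.9 and 192.8 to 283.8 and 355.5 CPM (1.01), and Col6a2, a chain of collagen VI, from 19.2 and 21.2 to 41.0 and 48.8 CPM (1.15). Timp2, an inhibitor of metalloproteases, fell from 643.3 and 593.9 to 286.3 and 302.9 CPM (-1.07, SE 0.15, adjusted p = 0.00244), and Fbln2, a matrix fibulin, from 460.8 and 256.8 to 167.3 and 148.8 CPM (-1.18). Timp2 held in all 4 refits. Col5a3 was lost without siControl replicate 1 or siTead1/4 replicate 2 (adjusted p up to 0.0832), Fbln2 without siControl replicate 1 or either siTead1/4 library (up to 0.12) and Col6a2 whichever library was left out (up to 0.199).

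Of 67 tested genes of axon guidance and neural adhesion, 7 were called up (10.4% of the list, beside 2.1% of all tested genes) and 1 down, with a median of 0.21. Leaving out 1 library gave 4 to 5 rises, and a median of 0.40 without siControl replicate 2, 0.33 without siTead1/4 replicate 1 and 0.12 without siTead1/4 replicate 2. Ephb1, an ephrin receptor, stood at 17.1 and 14.4 against 65.6 and 62.7 CPM (2.03, SE 0.19, adjusted p = 0.000601). Sema5a, a membrane semaphorin, stood at 8.13 and 8.57 against 34.5 and 27.5 CPM (1.89, SE 0.25, adjusted p = 0.00186), and Sema3d, a secreted one, at 13.8 and 23.0 against 55.2 and 65.4 CPM (1.71, SE 0.22, adjusted p = 0.00186). These 3 kept their calls in all 4 refits. The other rises were Robo2, a receptor for Slit ligands (3.05 and 1.48 against 9.63 and 8.56 CPM, 2.01), the ephrin receptors Epha4 (1.48) and Epha7 (1.36), and Sema6b (1.21), and Sema3f fell (-1.14). All 8 called members were separated between groups, as were all called genes and 52.3% of all tested genes. Robo2 lost its call without siControl replicate 2 or siTead1/4 replicate 1 (adjusted p up to 0.0623), Epha7 without siControl replicate 1 or siTead1/4 replicate 2 (up to 0.101), Sema6b and Sema3f without either siControl library or siTead1/4 replicate 1 (up to 0.102 and 0.185) and Epha4 whichever was left out (up to 0.18).

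Of 34 genes of neurotrophic signals and neural factors, 3 rose (8.82%) and 1 fell (2.94%), beside 2.1% and 1.2% of all tested genes. Lingo1, an inhibitor of axon outgrowth, stood at 8.16 and 11.4 against 37.3 and 68.3 CPM (2.43, SE 0.33, adjusted p = 0.00232). Gfra2, a co-receptor for neurturin, stood at 9.13 and 6.12 against 18.1 and 17.0 CPM (1.21, adjusted p = 0.00684), and Sox4 at 18.9 and 30.7 against 47.8 and 60.0 CPM (1.12, adjusted p = 0.0215). Prrxl1, a homeobox factor of sensory neurons, fell from 1.92 and 1.31 to 0.124 and 0.285 CPM (-2.99, adjusted p = 0.00357). Lingo1 and Prrxl1 held in all 4 refits, Gfra2 was under the fold threshold without siControl replicate 2 (0.95), and Sox4 was lost without siControl replicate 1 or siTead1/4 replicate 2 (adjusted p up to 0.14). Of 52 genes of the neuronal cytoskeleton and synapse, 2 were called up (3.85%, beside 2.1% of all tested genes) and none down, with a median of 0.28. At an adjusted p under 0.05 and any fold, 3 were higher and 3 lower. Their summed level was 1844 and 2040 against 1577 and 1447 CPM. The 2 calls were Elavl2, a neuronal RNA-binding protein with 9 and 4 counts against 59 and 26 (2.44, adjusted p = 0.0146), and Mapt, the microtubule protein tau (2.86 and 3.59 against 6.48 and 9.30 CPM, 1.29, adjusted p = 0.0172). Mtap1b, the microtubule-associated protein named above, was not counted in this list and was called down (-1.53, adjusted p = 0.000601). Elavl2 was lost without siControl replicate 2 or siTead1/4 replicate 1 (adjusted p up to 0.102), and Mapt without siControl replicate 1 or siTead1/4 replicate 2 (up to 0.133).

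The interferon response list differed between replicates as well as between treatments. Of 37 genes, 36 had a log2 fold change below 0 and the median was -1.18, but 1 was called, Ifit2 (5.86 and 10.6 against 3.21 and 3.39 CPM, -1.32, adjusted p = 0.0102). That was 2.7% of the list, beside 1.2% of all tested genes called down. The summed level of the list was 360.0 and 879.2 CPM in siControl and 254.6 and 438.2 CPM in siTead1/4, so that siTead1/4 replicate 2 lay above siControl replicate 1. Of the 37, 35 were higher in replicate 2 than in replicate 1 of both groups. Isg15, a ubiquitin-like protein made after interferon, stood at 3.43 and 37.5 against 0.638 and 9.80 CPM (-1.98, adjusted p = 0.325). Median and calls moved with single libraries. The median was -1.77 with 8 genes called down without siControl replicate 1, 0.21 with none without siControl replicate 2, -0.75 with none without siTead1/4 replicate 1 and -2.61 with 2 without siTead1/4 replicate 2. A fit blocked on replicate number called 5 down, and one with no filter on low counts 16. Ifit2 was not called without siControl replicate 2 or either siTead1/4 library (adjusted p up to 0.0717).

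Markers of other cell types were checked beside these results. The satellite cell markers summed to 9398 and 9485 against 7970 and 8845 CPM, mostly Des and Itga7, so the sum is no measure of satellite cells. In siControl the sum was 4715 and 4621 CPM at day 0. From day 0 to day 3 of siControl, Pax7 went from 100.8 and 99.2 to 24.7 and 45.5 CPM. Myf5 went from 90.0 and 123.7 to 16.8 and 27.4 CPM. None of the 23 markers was called after silencing, and their median was 0.28. That median was 0.13 without siControl replicate 1, 0.52 without siControl replicate 2, 0.48 without siTead1/4 replicate 1 and -0.0565 without siTead1/4 replicate 2, and without siControl replicate 2 there were 2 called up and 1 down. Pax7 stood at 24.7 and 45.5 against 41.5 and 59.9 CPM (0.53, adjusted p = 0.274). Smooth muscle and pericyte markers summed to 2208 and 1999 against 2342 and 2402 CPM with no call among 13, and fibroblast markers to 2806 and 3197 against 2696 and 3730 CPM with no call among 14. Schwann cell markers, mostly Erbb3, summed to 425.9 and 419.9 against 351.9 and 309.7 CPM with no call among 13.

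Endothelial and macrophage markers were low. The 1 call in each was 6.67% of the endothelial and 11.1% of the macrophage markers, both up. The 1 adipogenic call below, a fall, was 3.85% of its list. Over all tested genes 2.1% were called up and 1.2% down. The 15 endothelial markers summed to 35.0 and 13.4 against 41.7 and 20.4 CPM, with 13 of 15 higher in replicate 1 of both groups, and Vwf (von Willebrand factor, 5.24 and 3.11 against 17.9 and 10.1 CPM, 1.75, adjusted p = 0.0208) was the 1 called. Of these 15, 6 had a log2 fold change above 0 and 9 below it, and the list median was -0.52. The median was 1.595 without siControl replicate 1 and 0.166 without siTead1/4 replicate 2. It was -0.9468 without siControl replicate 2 and -1.312 without siTead1/4 replicate 1, so its sign depended on single libraries. Pecam1 stood at 2.94 and 0.146 against 1.94 and 0.166 CPM. The 9 tested macrophage markers summed to 10.1 and 9.25 against 17.5 and 12.4 CPM, with Mrc1, a mannose receptor, called up (2.03 and 2.06 against 7.97 and 4.79 CPM, 1.64, adjusted p = 0.00588), whereas the defining genes Ptprc, C1qa and Tyrobp were too low to be tested. The part of such cells in the results was not tested. Vwf was lost without either siControl library or siTead1/4 replicate 1 (adjusted p up to 0.13) and Mrc1 without siControl replicate 1 (0.0524). Of 26 adipogenic genes, Dgat2, which makes triglycerides, fell (27.8 and 30.7 against 12.0 and 13.5 CPM, -1.19, adjusted p = 0.0318), a call lost whichever library was left out (adjusted p up to 0.157).

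The same contrast was then read in the PM libraries of the other days, which share none with day 3. At day 0, 242 genes were called up (1.5%) and 178 down (1.1%), and at day 6, 75 up (0.465%) and 45 down (0.279%). Tead4 had log2 fold changes of -2.36 at day 0, -2.58 at day 3 and -1.75 at day 6. Those of Tead1 were -1.44, -1.68 and -1.10, and it was not called at day 6 (adjusted p = 0.143, edgeR test). The part of silencing strength in these counts was not tested. Of the 339 rises of day 3, 62 were also called up at day 0, which is 18.3% of them and 25.6% of the day 0 calls, and 62 at day 6, which is 82.7% of the day 6 calls. Of the 193 falls, 41 were called down at day 0 (21.2% and 23.0%) and 29 at day 6 (15.03% and 64.4%). Calls at all 3 days in the same direction covered 16 rises and 7 falls, among them Ankrd2, Fhl1, Ankrd23 and Tead4 below and Myh4, Ache, Pdgfb, Ephb1, Rgs14, Tgfb2, Col24a1 and Clstn2 above.

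A test of the difference between days called 37 genes with a more positive effect at day 3 than at day 0 (0.229%) and 16 with a more negative one (0.0991%). Of the 37, 22 were also called up at day 3. Between days 6 and 3 the same test called 0 genes in either direction (0% and 0%), with 733 at an unadjusted p under 0.05 and 25 called by DESeq2. Col24a1 rose by 1.19 at day 0, 3.75 at day 3 and 2.82 at day 6, with a difference of 2.56 between days 3 and 0 (SE 0.33, adjusted p = 0.0185). Itga11, the alpha 11 integrin of collagen receptors, rose at day 0 (1.17) from low levels, 0.254 and 0.254 against 0.56 and 0.589 CPM, and fell at day 3 from 6.81 and 6.72 to 2.08 and 2.40 CPM (-1.60), a difference of -2.77 (SE 0.30, adjusted p = 0.0118). Clip4 had log2 fold changes of 0.18 at day 0 and -1.98 at day 6 beside the -2.83 of day 3. Its siControl level was 4.68 and 5.72 CPM at day 0 and 111.8 and 136.4 CPM at day 6, so the gene was low before differentiation.

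**Figure D5:**
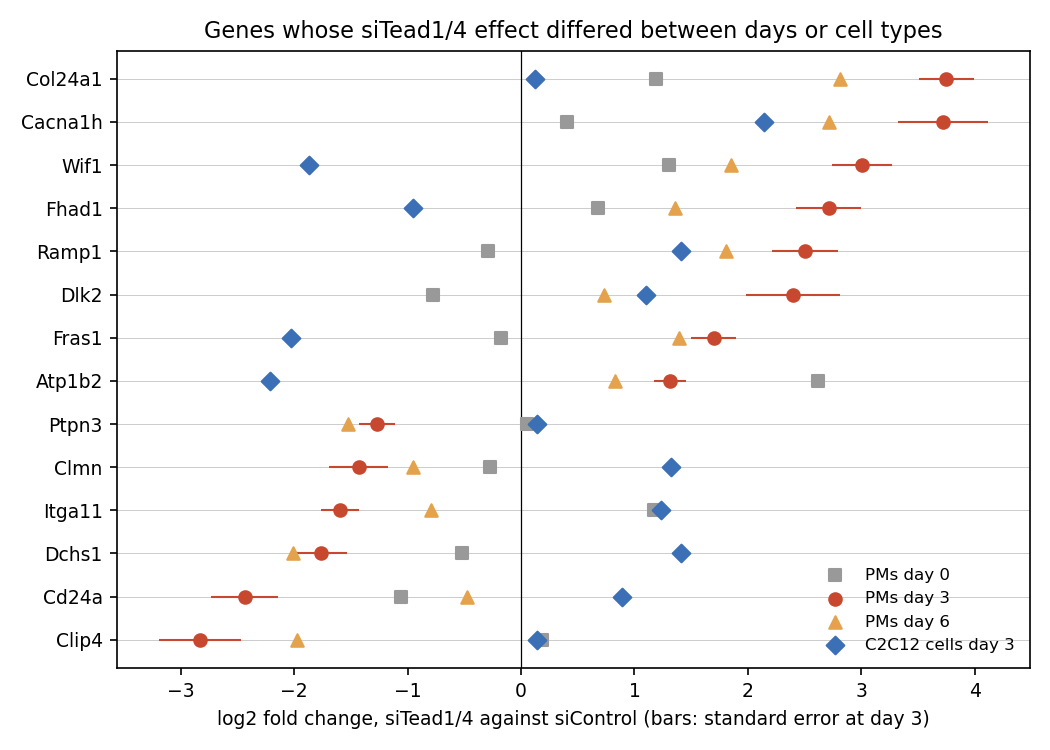
Log2 fold changes of siTead1/4 against siControl (horizontal axis) for 14 genes whose effect at day 3 in PMs differed from that at day 0 or from that in C2C12 cells, with symbols for PMs at days 0, 3 and 6 and for C2C12 cells at day 3. Bars are the standard error at day 3 in PMs, and Wif1 and Fras1 are among several genes on opposite sides of 0 in the 2 cell types. Their falls in C2C12 cells were not called by the edgeR test (adjusted p = 0.0822 and 0.125).

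C2C12 cells at the same day gave another set of calls, and Tead1 was not among them. By the edgeR test, the log2 fold change there was -1.76 for Tead4 (adjusted p = 0.0425) and -1.09 for Tead1 (adjusted p = 0.501). Neither effect was called different from that in PMs by the test of the difference (adjusted p = 0.396 and 0.832). In C2C12 cells 29 genes were called up (0.19%) and 166 down (1.08%), so falls outnumbered rises, where in PMs rises outnumbered falls. Of the PM rises that were tested in C2C12 cells, 4 of 233 were called up there, and of the PM falls 25 of 169 were called down, which is 15.9% of the 157 C2C12 falls that were also tested in PMs. Called or not, 139 of those 233 rises were higher in C2C12 cells (median log2 fold change 0.17). Of the 169 falls, 134 were lower there (median -0.72). The part of silencing strength in these overlaps was not tested. Genes that fell in both included Ankrd2, Myh7, Myl2, Myh8, Tead4, Fbxo40 and Ckmt2, and those that rose in both included 6330403A02Rik, Lingo1 and Ccnd1.

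The difference between the cell types was itself tested. The effect was more positive in PMs for 172 genes (1.02%) and more negative for 40 (0.236%), of which 66 and 14 were called in the same direction in PMs. On the scale shared by both cell types, Wif1 stood in C2C12 cells at 4.88 and 4.98 CPM in siControl and at 1.32 and 1.41 CPM in siTead1/4, and in PMs at 1.66 and 1.87 against 12.8 and 15.8 CPM. Its log2 effect was higher in PMs by 4.86 (SE 0.51, adjusted p = 0.000525). Cd24a stood in C2C12 cells at 6.37 and 6.62 against 9.658 and 14.96 CPM and in PMs at 102.3 and 123.9 against 21.6 and 20.4 CPM, a difference of -3.35 (SE 0.49, adjusted p = 0.0029). The number of such genes depended on single libraries. It was 47 without siControl replicate 1 of the PMs, 68 to 105 without each of the other 3 PM libraries or a C2C12 siControl library, 182 without C2C12 siTead1/4 replicate 2 and 642 without C2C12 siTead1/4 replicate 1.

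Genes that change in C2C12 differentiation were found on both sides. In siControl C2C12 cells, 2450 genes rose from day 0 to day 3 (16% of those tested) and 1940 fell (12.7%). Of the 233 PM rises tested there, 110 were induced in this way (47.2%) and 22 repressed (9.44%), and of the 169 PM falls, 92 were induced (54.4%) and 14 repressed (8.28%). Over all 14577 genes tested in both cell types, the shares were 15.9% and 12.4%. Myh4, Tgfb2, Ache and Col24a1 were among the induced genes that rose after silencing, and Myh1, Fhl1, Ankrd23 and Tnni1 among the induced genes that fell.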

How the data were processed

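RNA-seq was made from PMs and C2C12 cells with a kit that does not mark strand, so reads of overlapping genes cannot be told apart. The authors deposited raw counts per gene. The submitters' processing notes name CASAVA 1.8.2, TopHat2 2.0.10, Bowtie2 2.1.0, HTSeq 0.6.1, DESeq2 1.8.1 and the build mm9. In the same table, 36 columns of 12 other libraries and the normalized columns and annotation were not used as measurements, except gene length.

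Counts were fitted in R 4.3.3 with edgeR 4.0.16 over the 12 PM libraries (6 group means, TMM, filterByExpr, quasi-likelihood test). This left 6 residual degrees of freedom, and the biological coefficient of variation was 0.15. Benjamini-Hochberg adjustment ran over all tested genes. Differences between days came from the same fit, and those between cell types from a fit of all 24 libraries. The C2C12 results came from the 12 C2C12 libraries. The alternatives tried were DESeq2 1.42.0, other scaling and filters, a replicate block, other sets of libraries and leaving out each library. The code was tested on simulated data.

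Named were the Tead genes and other genes the study discusses, the 12 largest rises and 12 largest falls with at least 5 CPM in the higher group and no overlap, up to 4 called members of each list, and up to 4 genes each way for each difference between days or cell types. Lists are described by counts and medians, with no test. The members and lists were chosen with earlier results of these data known. The values of 1 gene are not reported here.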

Additional observations from a re-analysis of the deposited data

Results flagged for a closer look

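Some genes responded to siTead1/4 at day 3 in a way that differed from day 0 in PMs, by the edgeR test of the difference itself. The log2 effect was higher at day 3 by 3.31 for Cacna1h (SE 0.53, adjusted p = 0.0381), 3.17 for Dlk2 (SE 0.56, adjusted p = 0.0478), 2.79 for Ramp1, a partner of the calcitonin receptor-like receptor (SE 0.46, adjusted p = 0.0401), and 2.56 for Col24a1 (SE 0.33, adjusted p = 0.0185). Dlk2 stood at day 0 at 12.2 and 12.5 CPM in siControl and at 6.72 and 7.75 CPM in siTead1/4, so that its libraries were separated in the opposite direction to day 3. Ramp1 stood at 1.61 and 2.17 against 1.61 and 1.45 CPM at day 0 and at 9.08 and 19.6 against 78.0 and 84.8 CPM at day 3.

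The effect was lower at day 3 by a log2 difference of -3.01 for Clip4 (SE 0.51, adjusted p = 0.0443), -2.77 for Itga11 (SE 0.30, adjusted p = 0.0118), -1.32 for Ptpn3, a protein tyrosine phosphatase (SE 0.23, adjusted p = 0.0478), and -1.30 for Atp1b2, a beta subunit of the sodium pump (SE 0.22, adjusted p = 0.0401). Atp1b2 rose at both days, by 2.62 at day 0 from 2.43 and 3.38 to 16.8 and 18.5 CPM and by 1.31 at day 3 from 122.5 and 133.5 to 332.8 and 302.9 CPM. Ptpn3 stood at 3.96 and 4.42 against 3.90 and 4.77 CPM at day 0 and fell at day 3 from 12.2 and 13.5 to 4.76 and 5.91 CPM.

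Between PMs and C2C12 cells at day 3, the log2 effect was higher in PMs by 4.86 for Wif1 (adjusted p = 0.000525), 3.70 for Fras1, a basement membrane protein (adjusted p = 0.0082), 3.65 for Fhad1 (adjusted p = 0.0402) and 3.61 for Col24a1 (adjusted p = 0.000525). Fras1 stood in C2C12 cells at 10.2 and 19.0 against 3.23 and 4.10 CPM and in PMs at 51.4 and 55.9 against 213.8 and 136.7 CPM. Col24a1 hardly differed in C2C12 cells, at 1.16 and 1.48 against 1.323 and 1.598 CPM. Fhad1 was below 0.27 CPM in all 4 C2C12 libraries, so its fold change there rests on few reads.

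It was lower in PMs by a log2 difference of -3.35 for Cd24a (adjusted p = 0.0029), -3.18 for Dchs1 (adjusted p = 0.0441), -2.98 for Clip4 (adjusted p = 0.0029) and -2.76 for Clmn, an actin-binding protein of differentiating cells (adjusted p = 0.0321). Dchs1 stood in C2C12 cells at 1.65 and 1.98 against 7.75 and 2.06 CPM, and Clmn at 3.59 and 4.39 against 14.0 and 6.18 CPM, so in both genes C2C12 siTead1/4 replicate 1 was far above its replicate.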

How the results depend on the processing

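The 339 rises and 193 falls at day 3 varied with the settings. DESeq2 called 348 up and 230 down, 296 and 181 of them shared, and RLE scaling 338 and 197. With no filter on low counts 479 were called up and 325 down, with at least 10 counts in every library 220 and 159, from the 4 libraries alone 291 and 169, and in a fit of all 24 libraries 205 and 107. Leaving out 1 library gave 140 to 283 up and 90 to 169 down, and 48 of the 105 named genes that were called held in all 4 such refits. Tead4 held under every alternative run. Tead1 was not called in the fit of all 24 libraries (-1.67, adjusted p = 0.144), and ranged from -1.88 to -1.52 with 1 library left out. For refits that leave 1 library in a group, that library is assumed to vary like the other groups.

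The difference between days 3 and 0 (53 genes) was 270 by DESeq2, 373 with no filter, 86 with at least 10 counts in every library, 133 from the libraries compared alone, 7 in the fit of all 24 libraries and 11 to 36 with 1 library left out. The difference between PMs and C2C12 cells (212) was 496, 853, 115 and 122 under the first 4 of these, and 47 to 642 with 1 library left out. That between days 6 and 3 was 0 with edgeR, 25 by DESeq2, 46 with no filter and 0 with any library left out, beside 641 to 872 genes at an unadjusted p under 0.05 in those refits.

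Same-numbered libraries deviated together in most of the 15 pairs of PM groups (r = 0.0695 to 0.539, 0.443 at day 3). They were not taken as pairs because 1 of the 15 lay at 0.1 or under. The sources used here also tie the numbers to no shared culture. Any effect shared by replicate number thus stayed in the main fit. With the replicate block, 489 genes were called up, 303 down, 287 for days 3 and 0, 256 for PMs and C2C12 cells and 3 for days 6 and 3.

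Direction reversed in 11 of the named genes, none of them called. Under the block it was Col1a1 (0.0159). With 1 library left out, the log2 fold changes ran from -0.271 to 0.105 for Ccng1, -0.167 to 0.114 for Col1a1, -0.0838 to 0.419 for Col1a2, -0.75 to 0.192 for Ctgf, -0.0606 to 0.323 for Dll1, -4.13 to 0.0581 for Irf7, -5.001 to 0.597 for Isg15, -0.254 to 0.00358 for Myod1, -0.193 to 0.524 for Notch1, -0.311 to 0.106 for Tead2 and -0.135 to 0.123 for Yap1. In each of the other settings run, none reversed. The causes were not tested. Genes near 1 CPM, such as Rspo3 and Elavl2, rest on few reads, and 2 libraries a group limit all tests.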
